A study of Mus musculus with 33 samples.

Results

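The resting and the fully growing phase of the mouse hair cycle were set against each other across all measured genes, as whole dorsal skin at postnatal day 44 (P44, telogen) and at postnatal day 29 (P29, late anagen) of the natural cycle. The 6 arrays were taken by the postnatal day in their titles, 3 at P44 and 3 at P29 of 33 in the series. Each array held RNA of the upper-mid back of 1 wild-type C57BL/6 mouse, so replicates were different animals, and 3 per group leave the precision limited. The P44 mice were a female (replicate 1) and 2 males (replicates 2 and 3), and the P29 mice were a male (replicate 1) and 2 females (replicates 2 and 3). Nothing was given to these mice, and phase was assigned by histology of the skin. The other arrays of the series covered further days of the natural cycle and a cycle induced by plucking the hair. Age differed along with phase, so age and phase cannot be told apart. The sample labels of P44 carry the words early anagen while the description of the series calls that day telogen, and the data were therefore checked for signs of growth.

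Hair follicles grow (anagen), regress (catagen) and rest (telogen) in turn. During anagen, matrix cells at the base of the follicle divide and differentiate into the hair shaft, built of keratins that keratin-associated proteins cross-link, and into the inner root sheath that guides it, while melanocytes of the bulb hand pigment to the shaft. In telogen the lower follicle is gone, a club hair remains anchored, and the stem cells of the bulge and germ are quiet. The skin around the follicle is thick in anagen and thinner in telogen, and it also holds epidermis, dermal fibroblasts, fat, vessels, immune cells and a sheet of skeletal muscle beneath. In such bulk samples fewer cells of a type and less RNA per cell cannot be told apart.

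Mki67, a protein of dividing cells, and Krt35, a keratin of the early hair shaft, were read as the check of the P44 label. Mki67 had signals of 601, 615 and 684 at P44, against 4818, 4323 and 4043 at P29, and lay between 5236 and 7232 on the 4 early anagen arrays (P23 and P25). Krt35 had 92.8, 73.5 and 60.7 at P44, against 17335, 15199 and 16678 at P29, and between 1499 and 4134 in early anagen. On these genes the P44 arrays thus did not carry the levels of the early anagen arrays, and P44 is called telogen below. Beta-actin (Actb) missed the threshold between P44 and P29 (adjusted p = 0.46).

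Telogen and late anagen skin differed widely. Of 12867 genes, each read by 1 probe set, 6328 passed at an adjusted p under 0.05 (limma, Benjamini-Hochberg over all kept probe sets), 3692 higher and 2636 lower in telogen. These 49.2% of genes, 28.7% higher and 20.5% lower, are the background against which the counts of gene groups below are read. For 63% of genes the 3 P44 and the 3 P29 values did not overlap. Of the 26988 probe sets 12041 passed (44.6%), 6216 higher (23%) and 5825 lower (21.6%). For 1704 genes (13.2%) the 95% interval of the log2 difference lay within 0.5 on either side of 0.

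Rises were many and moderate, and falls were fewer but reached far deeper. Over 2-fold, 2085 genes were higher and 1148 lower, while over 8-fold 44 were higher and 194 lower. Of the lower genes, 121 passed 16-fold, 82 passed 32-fold and 64 passed 64-fold. The median called rise was 1.12 and the median called fall -0.91 on the log2 scale. By level, the 3217 genes with the lowest signals had 28.4% higher and 16.4% lower, and the 3217 with the highest signals had 26.9% higher and 24.4% lower. Arrays correlated at r = 0.955 to 0.976 within P44, 0.965 to 0.975 within P29 and 0.802 to 0.839 between them. These values are across all kept probe sets, which are not independent replicates.

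**Figure D1:**
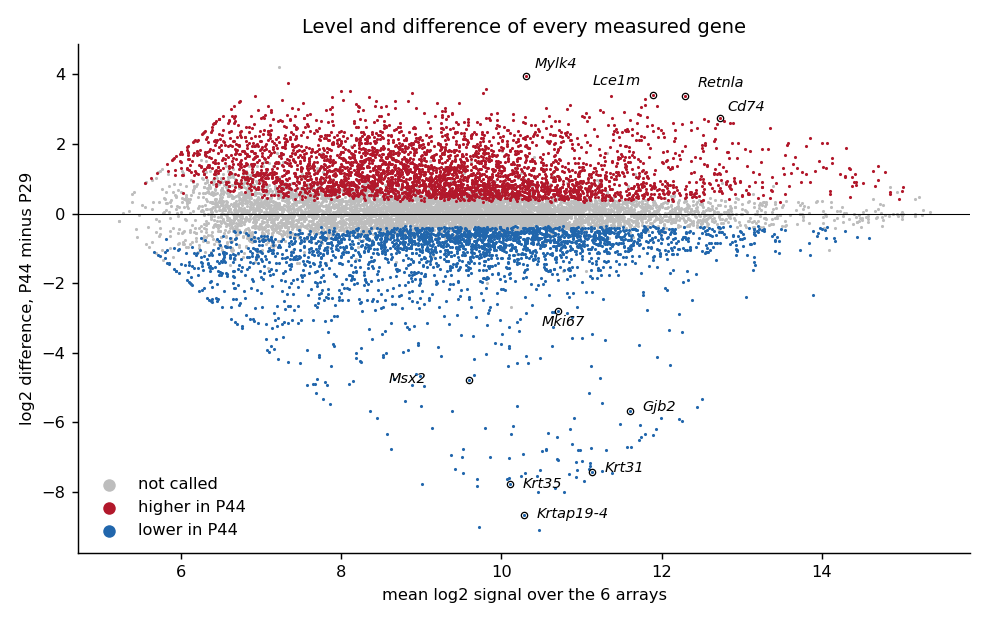
Each point is 1 of 12867 genes, with its mean log2 signal over the 6 arrays on the x axis and its log2 difference, P44 minus P29, on the y axis. Red genes were called higher and blue genes lower in P44, grey genes were not called. The downward arm, with Krtap19-4 and Krt35 marked, reaches below -7 while the largest called rise is the 3.94 of Mylk4.

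The genes with the deepest falls coded for the hair shaft. All 37 measured keratin-associated protein genes fell, with a median log2 difference of -7.03, beside 0.08 over all genes. Krtap19-4, which like its family fills the matrix between keratin filaments, had signals of 48.7, 87.5 and 56.1 at P44, against 26057, 19220.5 and 31477 at P29 (log2 difference -8.66 ± 0.28, adjusted p = 2.57e-05). Krtap5-1, of the ultra-high sulfur family, had 67.6, 42 and 58.2 at P44, against 12919, 10399 and 14265 at P29 (log2 difference -7.82 ± 0.22, adjusted p = 1.8e-05). Krtap7-1 had 302, 204 and 50.9 at P44, against 29006, 27447 and 33501 at P29 (log2 difference -7.67 ± 0.62, adjusted p = 0.000287), and its lowest value was on P44 replicate 3. For each gene the P44 values lay far under the P29 values, and the single P34 array, also of late anagen, had 13572, 10028 and 29738.

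Over the whole family the summed signals at P44 were 1.59%, 1.16% and 0.358% of the P29 mean in replicates 1 to 3. Replicate 3 was the lowest P44 array for 33 of the 37 genes, against 3666 of 12867 over all genes, and replicate 2 was the lowest P29 array for 34. The family held between 3.53% and 4.24% of the summed signal of all genes at P29, and between 0.014% and 0.0609% at P44. Several of these genes are near-identical copies, and a probe set can bind RNA of more than 1 of them. Since the arrays were scaled to the same mean, each difference is relative to the rest of the array.

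Hair keratins fell with them, while keratins of the interfollicular epidermis moved the other way. Of 43 measured keratins 25 fell and 7 rose. Krt31, a cortex keratin, had 307, 204 and 80.5 at P44, against 30663, 28462 and 29141 at P29 (log2 difference -7.42 ± 0.46, adjusted p = 0.000137). Krt86, a type II hair keratin, had 242, 193 and 75.2 at P44, against 25770.3, 22643 and 27738 at P29 (log2 difference -7.38 ± 0.42, adjusted p = 0.000108). Krt35 differed by -7.78 ± 0.18, adjusted p = 1.4e-05. The 3 P44 arrays of Krt31 spread widely, with replicate 3 at the bottom, and still lay far under every P29 array.

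Among the risers, Krt1, of the suprabasal epidermis, had 15218, 22346 and 18894 at P44, against 3600, 3012 and 2716 at P29 (log2 difference 2.59 ± 0.19, adjusted p = 0.000222). Krt15, a keratin of basal and bulge cells, had 28249, 30026 and 30084 at P44, against 10666, 12161 and 9855 at P29 (log2 difference 1.44 ± 0.13, adjusted p = 0.000418). Krt78 had 2002, 1417 and 1769 at P44, against 246, 277 and 320.3 at P29 (log2 difference 2.62 ± 0.18, adjusted p = 0.000186). The P44 values of these 3 keratins were all above the P29 values. Krt75, the keratin of the companion layer between the root sheaths, had 928, 1005 and 896 at P44, against 15865, 16441 and 16838 at P29 (log2 difference -4.12 ± 0.12, adjusted p = 1.8e-05), with groups apart.

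The upstream sequences of keratin-associated genes are shown because the members moved together. Of 35 members with a RefSeq promoter (GRCm38.p6), 27 (77.1%) held the letters TATAAA on either strand within 250 bases before the start, beside 14.3% of 27025 RefSeq genes and 8.97% of the 10343 measured genes with a promoter. The stretches below carry TATAAA in capitals and run 5′ to 3′ toward the start of the gene. Krtap5-1 lies at chr7:142297135-142297194 on the minus strand, Krtap5-2 at chr7:142176006-142176065 on the minus strand and Krtap31-1 at chr11:99907860-99907919 on the plus strand. The stretches of Krtap5-1 and Krtap5-2 are much alike, so the share counts related promoters as separate genes. A match is a description of the letters and shows no binding.
Krtap5-1: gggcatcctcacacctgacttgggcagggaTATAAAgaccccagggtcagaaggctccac
Krtap5-2: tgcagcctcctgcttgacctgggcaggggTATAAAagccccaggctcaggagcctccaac
Krtap31-1: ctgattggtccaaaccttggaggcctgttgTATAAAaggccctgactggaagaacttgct

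In gene order along the chromosomes, 12 runs of at least 5 adjacent measured genes were lower and 39 were higher. With 20.5% of all genes lower and 28.7% higher, some such runs would arise in any gene order. Their number was not worked out, so the counts alone show no effect of position. The longest lower run held 21 genes from Krt23 to Krt36 on chromosome 11, with a median of -6.92, and the next 17 genes from Krtap26-1 to Krtap6-3 on chromosome 16, with a median of -7.18. On chromosome 15, 7 genes from Krt88 to Krt75 fell, with a median of -6.18, and on chromosome 7, 7 genes from Dusp8 to Ifitm10 around the Krtap5 genes, with a median of -6.95. Chromosomes 11, 16, 7 and 15 held 27, 26, 14 and 12 of the 121 genes lower by over 16-fold. The type I and type II keratin clusters and the keratin-associated clusters are known neighbours in the genome, so the runs restate the families by position. The 7 lower runs without keratin or keratin-associated genes held 5 or 6 genes each, with medians of -1.23 to -0.53. The higher runs held up to 11 genes, with medians of 0.78 or more, led by 11 genes from H2-DMa to Gpsm3 on chromosome 17 (median 1.98), 10 from AW112010 to Ms4a2 on chromosome 19 (median 2.26) and 10 from Dusp23 to Ifi202b on chromosome 1 (median 2.14). They held antigen presentation genes, the Ms4a family of immune cell membrane proteins and the Ifi200 family of interferon-induced DNA sensors.

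**Figure D2:**
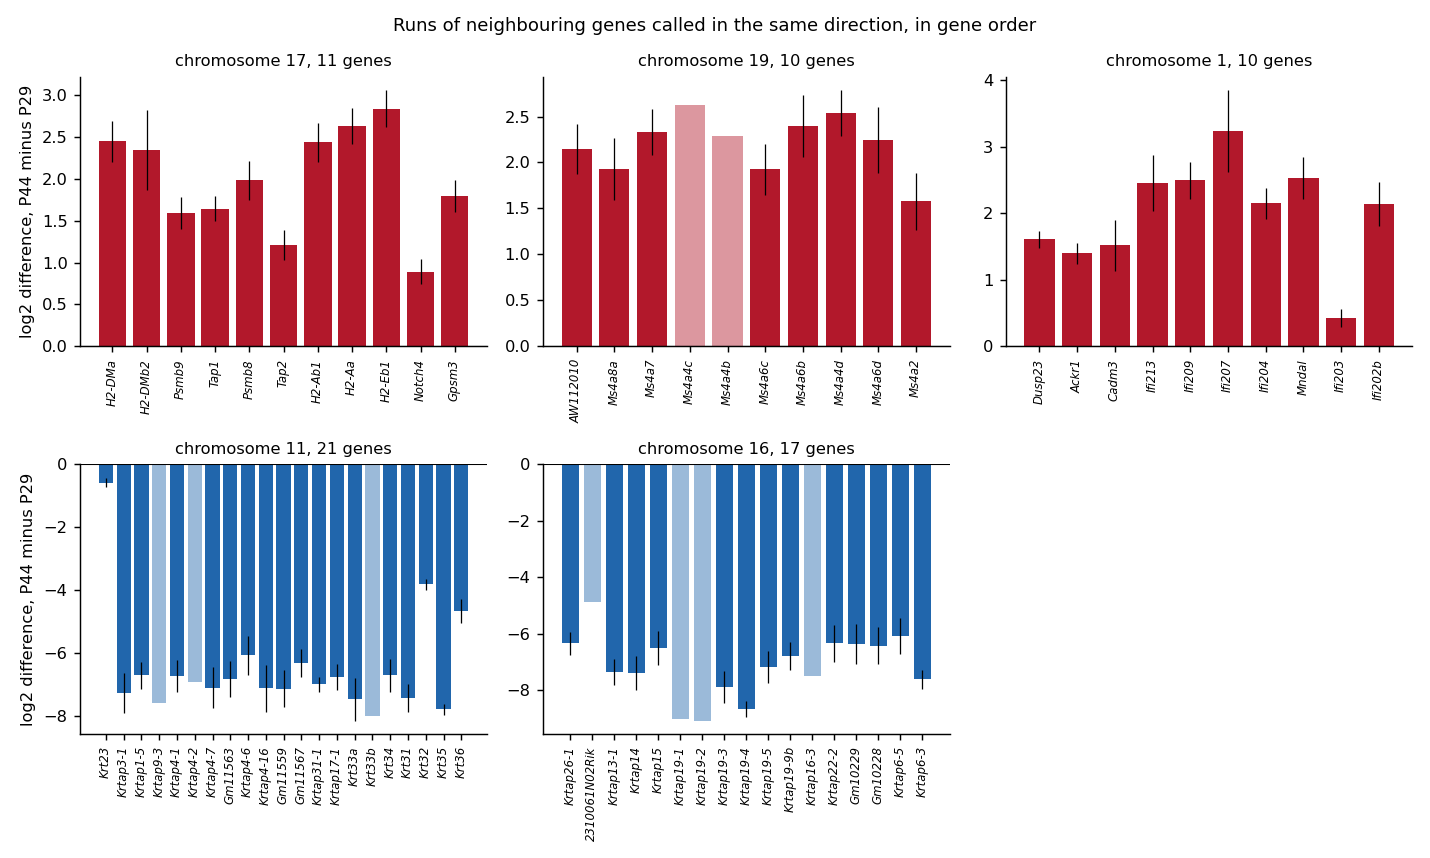
Bars give the log2 difference, P44 minus P29, of adjacent genes in 3 runs called higher (top, red) and 2 called lower (bottom, blue), in gene order, with the SE as error bar. Paler bars have no error bar since at least 1 array lay under the floor and the value is a bound. The scale of the lower runs reaches below -8, and that of the higher runs stays between 0 and about 3.

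Other genes were named because they were among the 15 largest falls, so their depth is a description. Padi3, which converts arginine of trichohyalin to citrulline, had 154, 126 and 43.7 at P44, against 17510.5, 17092 and 15493 at P29 (log2 difference -7.46 ± 0.45, adjusted p = 0.000131). Tchhl1, a trichohyalin-like protein, had 136, 138 and 55.6 at P44, against 16574, 19751 and 20904 at P29 (log2 difference -7.55 ± 0.36, adjusted p = 6.86e-05). Gprc5d, a receptor without a known ligand that is found in hair keratinocytes, had 156, 120.1 and 36.7 at P44, against 16708, 13889 and 19508 at P29 (log2 difference -7.55 ± 0.52, adjusted p = 0.000186). In all of these P44 replicate 3 was the lowest of the 6 arrays. Calhm4, of the calcium homeostasis modulator channel family, had 62.6, 58.6 and 45.7 at P44, against 9993, 8013 and 11421 at P29 (log2 difference -7.46 ± 0.19, adjusted p = 1.59e-05), with P44 values close together.

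Genes of tight and gap junction proteins fell more often than they rose, while cadherin genes split evenly. Of 24 claudins, connexins and pannexins 12 fell and 3 rose. Gjb2, the gap junction protein connexin 26, had 398, 443 and 474 at P44, against 23038, 22760.5 and 21159 at P29 (log2 difference -5.67 ± 0.13, adjusted p = 1.4e-05), and its partner Gjb6 (connexin 30) had 64.3, 125 and 102 at P44, against 4538, 4955 and 4814 at P29 (log2 difference -5.67 ± 0.25, adjusted p = 5.18e-05). Gja3, another connexin, had 4.3, 6 and 7.6 at P44, against 1263, 1031 and 1408 at P29 (log2 difference -5.14 or lower, adjusted p = 1.8e-05), with every P44 value under the floor of 34.6 that was set for log values. Dsc2, a desmosomal cadherin, had 215, 343 and 385 at P44, against 4457, 4841 and 6681 at P29 (log2 difference -4.10 ± 0.27, adjusted p = 0.000158). The 3 P44 values of Gjb2 agreed within a narrow range, far under P29.

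Of 240 solute carriers 80 rose and 55 fell (33.3% and 22.9%), beside 28.7% and 20.5% of all genes, and the 4 named here had the smallest p among the falls. Slc39a8 and Slc39a10, zinc importers, had 583, 479.7 and 583 at P44, against 6732, 7279 and 5739 at P29, and 1459, 1308 and 1332 at P44, against 15099.5, 13011 and 13927 at P29. Their log2 differences were -3.58 ± 0.15, adjusted p = 4.95e-05, and -3.36 ± 0.13, adjusted p = 3.53e-05. Slc7a11, the cystine importer, had 6.5, 4.9 and 34.8 at P44, against 255, 304 and 341 at P29 (log2 difference -3.10 or lower, adjusted p = 6.4e-05). Cth, the last enzyme of the pathway from methionine to cysteine, had 199, 96.8 and 123 at P44, against 1995, 1572 and 1999.9 at P29 (log2 difference -3.79 ± 0.28, adjusted p = 0.000217), and Cbs, the enzyme before it, had 337, 365 and 363 at P44, against 1398, 1487 and 1301 at P29 (log2 difference -1.97 ± 0.12, adjusted p = 0.000137). Hair proteins are rich in cysteine, and all of these genes of cysteine supply were lower on every P44 array than on every P29 array. Slc40a1, the iron exporter ferroportin, differed by -2.77 ± 0.15, adjusted p = 8.75e-05.

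Glutathione genes split. Gclc and Gclm, the 2 subunits of the enzyme that starts glutathione synthesis, differed by -1.95 ± 0.19 and -1.36 ± 0.14, and Gsr, which recycles glutathione, by -1.25 ± 0.14. Gpx3, a secreted glutathione peroxidase, had 21823, 30480.3 and 22286 at P44, against 4820.2, 5549.9 and 3352 at P29 (log2 difference 2.46 ± 0.23, adjusted p = 0.000476), and Gstt1, a glutathione transferase, had 1282, 1125 and 1085 at P44, against 296, 358 and 305 at P29 (log2 difference 1.86 ± 0.14, adjusted p = 0.000234). Of the 48 measured antioxidant genes 15 rose and 10 fell, so the group as a whole stood near the background while the named genes of glutathione synthesis and recycling were lower and the named peroxidase and transferase higher.

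Pigment genes fell too. Tyr, the first enzyme of melanin synthesis, had 112, 83.4 and 66.8 at P44, against 2764, 2687 and 2359.5 at P29 (log2 difference -4.92 ± 0.21, adjusted p = 4.93e-05), and Tyrp1, a later one, had 330, 253 and 292 at P44, against 5975, 5151 and 6024 at P29 (log2 difference -4.30 ± 0.15, adjusted p = 2.78e-05). Trpm1, a channel of melanocytes, had 40.2, 9.8 and 3.4 at P44, against 1113, 1282 and 916 at P29 (log2 difference -4.91 or lower, adjusted p = 2.78e-05). Of 10 pigment cell markers 9 fell. Their summed signal was 3729 to 4912 at P44 and 29544 to 33045 at P29.

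**Figure D3:**
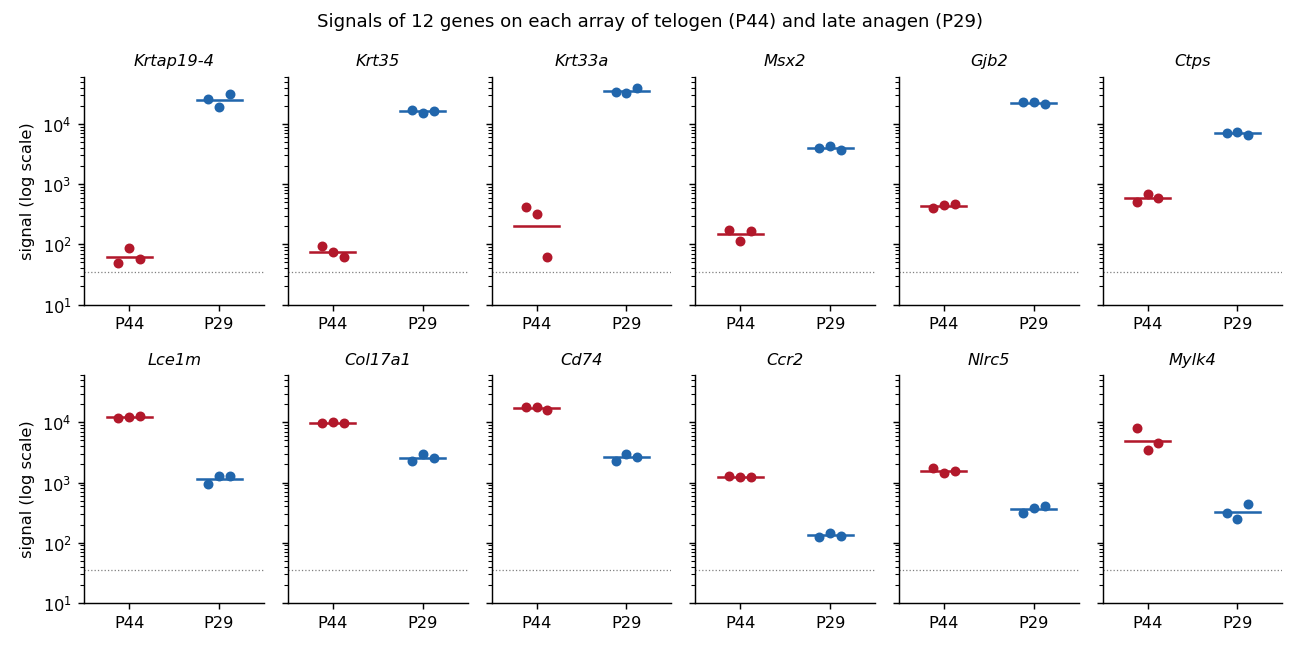
Signals (log axis) of 12 genes, 1 point per array, with P44 in red on the left and P29 in blue on the right of each panel. The line is the mean on the log scale and the dotted line the floor of 34.6. No panel has overlapping groups, and P44 replicate 3 lies apart from the other P44 arrays for Krt33a.

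Of 334 measured members of transcription factor families 110 rose and 64 fell (32.9% and 19.2%), close to the background. The factors named here were those with the largest difference in each direction, and several of those that fell are known from hair formation. Msx2, a homeobox factor of the hair matrix, had 176, 112 and 164 at P44, against 4026, 4381 and 3731 at P29 (log2 difference -4.77 ± 0.20, adjusted p = 4.83e-05). Foxn1, the factor missing in nude mice, had 159, 151 and 162 at P44, against 2551, 2465 and 1781 at P29 (log2 difference -3.83 ± 0.17, adjusted p = 5.45e-05). Hoxc13, a regulator of hair keratin genes, had 352, 272 and 274 at P44, against 2863, 3337 and 2134 at P29 (log2 difference -3.20 ± 0.21, adjusted p = 0.000156). Only factors with groups apart and no array under the floor could be named, so their separation follows from the choice.

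Lef1, the nuclear partner of beta-catenin, had 112, 69.8 and 92.8 at P44, against 1796, 1609 and 1162 at P29 (log2 difference -4.06 ± 0.24, adjusted p = 0.000113). Dlx3, a homeobox factor of shaft and sheath differentiation, differed by -3.75 ± 0.22, Mycn by -3.13 ± 0.17, Elf5 by -3.31 ± 0.19 and E2f2, a cell cycle factor, by -2.80 ± 0.30. Among the rising factors, Ikzf1, a factor of lymphocytes and other blood cells, had 629, 399 and 460.3 at P44, against 57.1, 154 and 119.8 at P29 (log2 difference 2.26 ± 0.38, adjusted p = 0.0038). Irf8 and Irf4, factors of myeloid and lymphoid cells, differed by 2.14 ± 0.16 and 2.12 ± 0.20. Nr3c2, the mineralocorticoid receptor, had 243, 151 and 181 at P44, against 44.8, 42.7 and 40.7 at P29 (log2 difference 2.14 ± 0.19, adjusted p = 0.000399). Prrx1, a homeobox factor of dermal mesenchyme, had 3251, 4157 and 3979 at P44, against 1122, 973 and 762 at P29 (log2 difference 2.00 ± 0.19, adjusted p = 0.000446), and Mef2c, of muscle and myeloid cells, had 3540.2, 2940.4 and 3193 at P44, against 879.9, 828 and 735 at P29 (log2 difference 1.99 ± 0.14, adjusted p = 0.000194). The groups of these factors were apart by the same choice, and P29 replicate 1 of Ikzf1 was the lowest of its 3.

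Several groups of genes for making proteins were lower in telogen, to differing degrees. Of 65 measured ribosome biogenesis factors 49 fell, with a median of -0.81, and the other 16 did not pass. Nop58, of the nucleolar particles that modify ribosomal RNA, had 254, 276 and 227 at P44, against 762, 962 and 1098 at P29 (log2 difference -1.89 ± 0.17, adjusted p = 0.000426), and Wdr12, needed for the large subunit, had 419, 409 and 397 at P44, against 1077, 1168 and 1255 at P29 (log2 difference -1.51 ± 0.12, adjusted p = 0.000291). Of 19 aminoacyl-tRNA synthetases, which load amino acids onto tRNA, 17 fell, with a median of -0.84. Rars, for arginine, had 1891, 1929 and 1874 at P44, against 5651, 5488 and 7499.5 at P29 (log2 difference -1.70 ± 0.16, adjusted p = 0.000427). Every P44 array was under every P29 array for these genes, and the falls were small beside those of hair shaft genes.

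Translation factors followed with 26 of 43 lower. Eif2b3, of the exchange factor that recharges initiation factor eIF2, had 464, 391 and 483 at P44, against 2139, 2126 and 2272 at P29 (log2 difference -2.29 ± 0.13, adjusted p = 0.000112). Eef1a2, the elongation factor form of muscle and nerve, had 8478, 7333 and 7864 at P44, against 2992, 1977 and 2987 at P29 (log2 difference 1.60 ± 0.20, adjusted p = 0.00111), and so moved the other way. The cytosolic ribosomal proteins themselves stood near 0, with 8 lower (17%, beside 20.5% of all genes) and 2 higher of 47 and a median of -0.12. The risers were Rpl3l, a muscle form, with 3199, 1979 and 2388 at P44, against 568, 441 and 354 at P29, and Rpl39l (1.53 ± 0.21). Of 75 mitochondrial ribosomal proteins 20 fell (26.7%, not far from the 20.5% of all genes). The number was 12 without P44 replicate 3, P29 replicate 1 or P29 replicate 2, 13 without P44 replicate 2 and 15 to 17 without 1 of the others. Leaving out 1 array lowered calls everywhere, as 9288 to 10393 of the 12041 called probe sets kept the call. List counts without 1 array, here and below, are to be read beside that loss.

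In the nucleus, 33 of 50 genes of nucleotide synthesis and DNA repair fell, 31 of 60 splicing factors and hnRNPs and 14 of 23 nuclear pore proteins. Ctps, which makes CTP, had 512, 698 and 593 at P44, against 7122, 7473 and 6650.4 at P29 (log2 difference -3.57 ± 0.15, adjusted p = 4.95e-05). Nme1, which makes nucleoside triphosphates, had 968, 1145 and 1064 at P44, against 5424, 5774 and 6089 at P29 (log2 difference -2.45 ± 0.13, adjusted p = 8.75e-05), and Brca1, of DNA break repair, had 143, 114 and 121 at P44, against 499, 494 and 678 at P29 (log2 difference -2.13 ± 0.18, adjusted p = 0.000307). Srsf3, a splicing factor, had 3599, 4301 and 4007 at P44, against 8377, 7677 and 7082 at P29 (log2 difference -0.96 ± 0.14, adjusted p = 0.00192). The ranges of the groups were apart for each of these, and Ctps had the deepest fall of its list. Of 22 markers of dividing cells 21 fell, with summed signals of 4662 to 6524 at P44 and 26483 to 27892 at P29. The part that dividing cells had in the falls of biogenesis, nuclear and nucleotide genes was not tested.

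Protein folding and disposal showed a division by branch. Of 45 proteasome subunits 25 fell and 4 rose, although the number lower was 13 without P44 replicate 3, 15 without P29 replicate 2, 16 without P44 replicate 2 and between 17 and 21 without 1 of the other arrays. The 4 risers were Psmb8, Psmb9 and Psmb10, the subunits of the immunoproteasome, and Psme1, of its activator. Psmb8 had 1934, 1201 and 1351 at P44, against 301, 434 and 388 at P29 (log2 difference 1.98 ± 0.23, adjusted p = 0.000909), and Psmb9 had 1296, 979 and 929 at P44, against 291, 388 and 381 at P29 (log2 difference 1.59 ± 0.19, adjusted p = 0.00103). Psmd1, of the regulatory particle, had 2696, 2720.5 and 2738 at P44, against 4495, 4724 and 4849 at P29 (log2 difference -0.79 ± 0.11, adjusted p = 0.00204), and Psmc5, an ATPase of it, had 3718, 3374 and 3680.2 at P44, against 6104, 6769.5 and 5891 at P29 (log2 difference -0.80 ± 0.12, adjusted p = 0.0028). Each of these had groups apart.

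The chaperonin that folds actin and tubulin fell in part, as 8 of 14 of its subunits and of prefoldin, or 5 without P44 replicate 2 and 6 to 8 without 1 of the others. Cct7 had 3877, 3325 and 3698 at P44, against 7161, 7378 and 8204 at P29 (log2 difference -1.06 ± 0.13, adjusted p = 0.00112). Of 56 genes of the endoplasmic reticulum 19 fell, or 11 without P44 replicate 3 or P29 replicate 2, 12 without P29 replicate 1 and 14 to 15 without 1 of the others. Ero1a, which forms disulfide bonds, had 845, 868 and 866 at P44, against 4334, 4652 and 3729.9 at P29 (log2 difference -2.30 ± 0.13, adjusted p = 0.000112), and Hspa5, the chaperone BiP, had 6414, 5389 and 5214 at P44, against 12818, 13789.5 and 17989 at P29 (log2 difference -1.38 ± 0.17, adjusted p = 0.00127). Herpud1, a stress-induced membrane protein, rose, with 3403, 3511 and 3346 at P44, against 1137, 1797 and 1634 at P29. Of 48 lysosomal proteins 33 rose, with a median of 0.73. Hexa, a lysosomal hexosaminidase, had 6462, 6214 and 5312 at P44, against 1812, 1608 and 1381 at P29 (log2 difference 1.91 ± 0.16, adjusted p = 3e-04), and Ctss, a cathepsin of antigen-presenting cells, had 9793, 8336 and 6518 at P44, against 1188, 1551 and 1327 at P29 (log2 difference 2.59 ± 0.19, adjusted p = 0.000228). Gla, a lysosomal galactosidase, was lower, with 167, 159 and 257 at P44, against 664, 702 and 737 at P29.

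**Figure D4:**
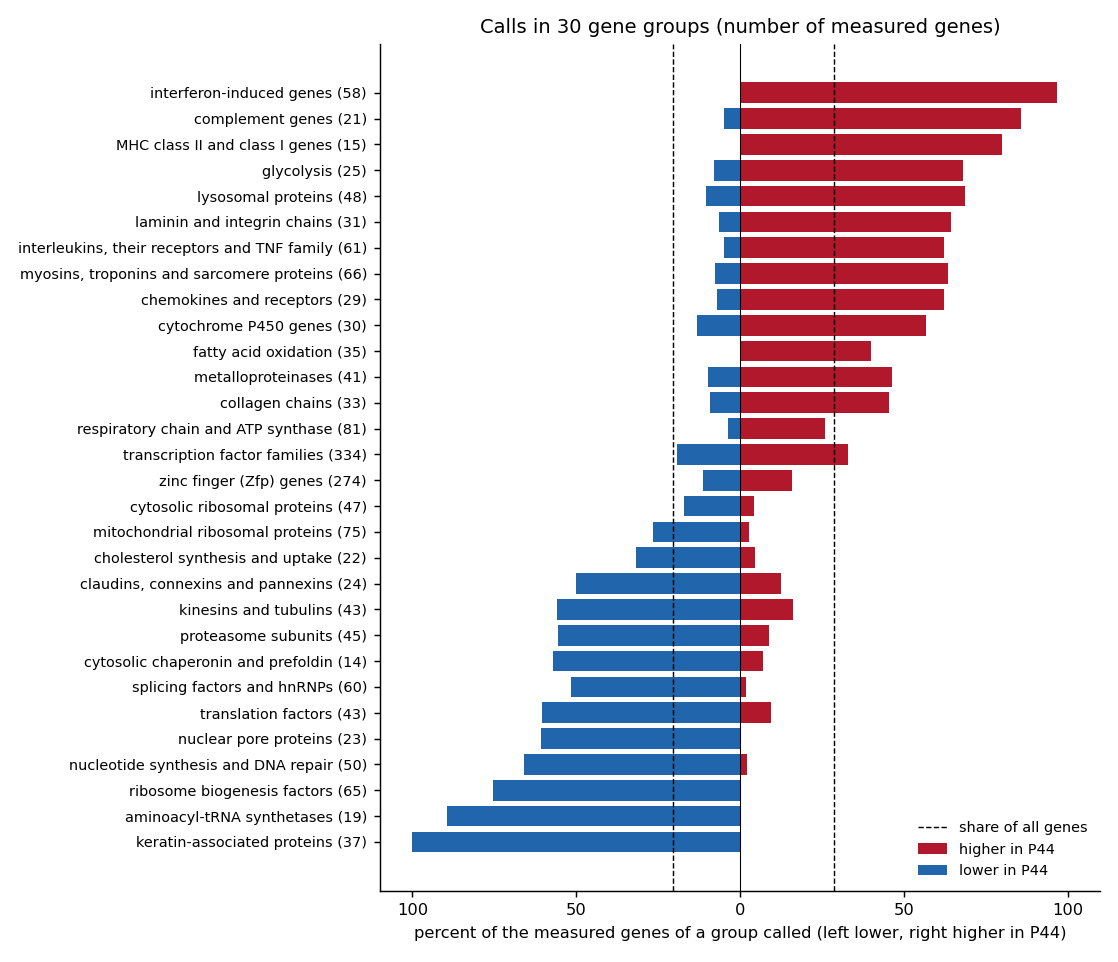
Bars give the percent of the measured genes of 30 groups that were called, red to the right for higher and blue to the left for lower in P44. Dashed lines mark the 28.7% and 20.5% of all genes. Interferon-induced, complement and MHC genes lie at the top, and the keratin-associated, aminoacyl-tRNA synthetase and ribosome biogenesis groups at the bottom.

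Immune genes were higher in telogen across several groups. Of 58 measured interferon-induced genes 56 rose, with a median of 1.54. The other 2, Oas1b (0.85 ± 0.59, adjusted p = 0.27) and Oasl1 (0.57 ± 0.28, adjusted p = 0.14), were in the same direction and missed the threshold. Nlrc5, the activator of MHC class I genes, had 1757, 1446 and 1525 at P44, against 308, 384 and 411 at P29 (log2 difference 2.10 ± 0.16, adjusted p = 0.000247). Tap1, which pumps peptides into the endoplasmic reticulum, had 1758, 1532 and 1580 at P44, against 516, 592 and 453 at P29 (log2 difference 1.65 ± 0.15, adjusted p = 0.000393), and Ifitm3, a membrane protein that restricts virus entry, had 17344, 16317 and 15739.7 at P44, against 4239, 5841 and 4300 at P29 (log2 difference 1.80 ± 0.16, adjusted p = 0.000414). For each, the lowest P44 array lay above the highest P29 array.

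The interferon genes also varied together between mice of 1 phase. P44 replicate 1 was the highest P44 array for 50 of the 58 and P29 replicate 2 the highest P29 array for 50, against 5644 and 4395 of 12867 over all genes. A similar order held in other immune lists. P44 replicate 1 was also the highest P44 array for 16 of 21 complement genes and 12 of 15 MHC genes. For leukocyte markers it was so for 14 of 20. P29 replicate 2 was the highest P29 array for 13 complement genes, 7 MHC genes and 13 leukocyte markers. P29 replicate 1, the male of that day, was the lowest P29 array for 40 interferon genes, and P44 replicate 1 was the female of its day. With sex as a covariate 55 rose, with a median of 1.68. Without 1 array in turn, 46 to 56 rose. Gbp8, a guanylate-binding protein induced by interferon, showed the spread of replicate 1, with 521, 144 and 119.9 at P44, against 5, 22.9 and 20 at P29, and all P29 values were under the floor.

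Promoters of interferon-induced genes are shown since these genes moved together in 1 direction. The letters GAAA, any 2 bases and GAAA again, the core of the interferon-stimulated response element, stood on either strand within 250 bases before the start in 17 of 41 members with a RefSeq promoter (41.5%), beside 3.46% of 27025 RefSeq genes and 3.18% of the measured genes. The stretches of Cxcl10, a chemokine (chr5:92349068-92349127 on the minus strand), Igtp, a GTPase (chr11:58199496-58199555 on the plus strand), and Trim30a (chr7:104465195-104465254 on the minus strand) carry the match in capitals, which in Trim30a reads as the reverse complement. Of the 15 MHC genes, 10 had a RefSeq promoter and 8 of these (80%) held ATTGG or its complement CCAAT, beside 37.5% of all RefSeq genes, as H2-Eb1 at chr17:34305792-34305851 on the plus strand. The interferon list was made of genes known as induced by interferon. A high share of the response element was therefore likely from the start and adds no support. The letters do not show whether a factor bound there.
Cxcl10: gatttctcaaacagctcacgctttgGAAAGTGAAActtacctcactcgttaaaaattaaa
Igtp: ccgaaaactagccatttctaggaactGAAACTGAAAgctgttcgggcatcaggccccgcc
Trim30a: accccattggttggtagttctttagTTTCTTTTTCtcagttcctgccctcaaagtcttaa
H2-Eb1: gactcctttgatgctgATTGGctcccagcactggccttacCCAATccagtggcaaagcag

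Antigen presentation genes rose as well. Of 15 MHC genes 12 rose, with a median of 2.19. H2-Eb1, a class II beta chain, had 12036, 8059.8 and 7698 at P44, against 1033, 1401 and 1405 at P29 (log2 difference 2.84 ± 0.22, adjusted p = 0.000269). Cd74, the invariant chain of class II, had 18284, 18173 and 16038 at P44, against 2276, 2962 and 2671 at P29 (log2 difference 2.74 ± 0.15, adjusted p = 9.39e-05). B2m, the light chain of class I, had 26984, 26666 and 25276 at P44, against 9648, 10602 and 10945 at P29 (log2 difference 1.34 ± 0.12, adjusted p = 0.000396). The lowest P44 array stood far above the highest P29 array for H2-Eb1 and Cd74, and by less for B2m.

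Complement genes rose in 18 of 21 cases (median 1.74), chemokines and their receptors in 18 of 29 and interleukins, their receptors and the TNF family in 38 of 61. C3ar1, the receptor for the complement fragment C3a, had 1000.5, 841 and 818 at P44, against 145, 167 and 109.5 at P29 (log2 difference 2.67 ± 0.19, adjusted p = 0.000207), and Serping1, the inhibitor of the first complement enzymes, had 13132, 17683 and 14781 at P44, against 3979.5, 4019.7 and 3252 at P29 (log2 difference 2.01 ± 0.17, adjusted p = 0.000303). Clu, an inhibitor of complement lysis with roles beyond it, was the 1 complement gene that fell, with 2863, 2441 and 2411 at P44, against 5953, 8446 and 10041 at P29 (-1.64 ± 0.21, adjusted p = 0.00141). Ccr2, the chemokine receptor of monocytes, had 1271, 1236 and 1215 at P44, against 122, 148 and 129 at P29 (log2 difference 3.22 ± 0.13, adjusted p = 3.99e-05), with P44 values close together. Il33, an alarm cytokine of epithelial cells, had 1072, 1026 and 1352 at P44, against 162, 217 and 253 at P29 (log2 difference 2.46 ± 0.21, adjusted p = 0.000327), and Il18 had 2879, 2463 and 2651 at P44, against 756, 797 and 889 at P29 (log2 difference 1.71 ± 0.13, adjusted p = 0.000258).

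A smaller set of cytokine genes was higher in late anagen. Cxcl14, a chemokine of epithelia, had 1185, 1356 and 1134 at P44, against 4278, 4619.7 and 4468 at P29 (log2 difference -1.87 ± 0.13, adjusted p = 0.000186), and Il1rn, which blocks the interleukin 1 receptor, had 632, 744 and 797 at P44, against 1282, 1626 and 1842 at P29 (log2 difference -1.12 ± 0.18, adjusted p = 0.00311). Il1f10, of the interleukin 1 family, differed by -2.03 ± 0.24, adjusted p = 0.00102. For each of these, the P34 array was also above all P44 arrays, with 5684, 1725 and 1768.

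Myeloid cell genes were among the 15 largest rises named. Mpeg1, the macrophage perforin, had 3684, 2871 and 2734 at P44, against 166, 397 and 264 at P29 (log2 difference 3.57 ± 0.32, adjusted p = 0.000393). Clec7a, the receptor Dectin-1 for fungal glucans, had 1375, 578 and 529.6 at P44, against 63.1, 55.6 and 114 at P29 (log2 difference 3.34 ± 0.44, adjusted p = 0.00139), with replicate 1 more than 2-fold above the other P44 arrays. Retnla, a secreted protein of alternatively activated macrophages, had 28636, 11435 and 12964 at P44, against 1468, 1587 and 1629 at P29 (log2 difference 3.38 ± 0.34, adjusted p = 0.000575). Aif1, a macrophage protein, differed by 3.28 ± 0.28. Cd209g, a lectin, had 2960, 1039 and 902 at P44, against 136, 300 and 80.3 at P29 (log2 difference 3.24 ± 0.61, adjusted p = 0.00577), again with replicate 1 the highest. Csf1r, the receptor that keeps macrophages alive, had 18688, 14630.4 and 12780.5 at P44, against 3173, 2891 and 2344 at P29 (log2 difference 2.45 ± 0.19, adjusted p = 0.000273).

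Leukocyte markers stood beside these groups, with 18 of 20 higher. Their summed signal was 109394 to 157515 at P44 and 27456 to 33711 at P29. Ptprc, the CD45 found on all leukocytes, had 4134, 3041 and 2812 at P44, against 400.2, 575 and 476 at P29 (log2 difference 2.78 ± 0.21, adjusted p = 0.00023). The marker Epcam fell, and Tpsb2, a mast cell tryptase, did not pass. The interferon list shared no gene with the leukocyte markers, and the MHC list shared 4. With the proteasome subunits the interferon list shared 3 genes, and with the chemokines and receptors 1. The part of leukocytes in the rise of immune and lysosomal genes was not tested.

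Many genes of muscle fibres rose. Of 66 sarcomere proteins 42 rose, with a median of 0.96. Mylk4, a myosin light chain kinase relative and the largest called rise of all, had 7997, 3464 and 4465 at P44, against 315, 246 and 439.5 at P29 (log2 difference 3.94 ± 0.35, adjusted p = 0.000389). Sln, sarcolipin, which regulates the calcium pump of the sarcoplasmic reticulum, had 1433, 1761 and 1521 at P44, against 269.9, 105 and 102 at P29 (log2 difference 3.46 ± 0.38, adjusted p = 0.00076). Tcap, which caps titin, had 16177, 15236 and 14772 at P44, against 2153, 2186 and 3106 at P29 (log2 difference 2.65 ± 0.18, adjusted p = 0.000171), and Des, the muscle intermediate filament, had 8211, 7578 and 7949.9 at P44, against 1491, 1093 and 1145 at P29 (log2 difference 2.68 ± 0.16, adjusted p = 0.000112). Values were apart in each, and P44 replicate 1 was the highest for Mylk4 and the lowest for Sln.

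Glycolysis genes rose in 17 of 25 cases. Pfkm, the muscle form of the committing enzyme, had 14994, 11893 and 11760.5 at P44, against 3241, 2230.2 and 2618 at P29 (log2 difference 2.26 ± 0.19, adjusted p = 0.000303), and Eno3, the muscle enolase, had 27440.5, 22438 and 25055 at P44, against 7999, 4967 and 5599 at P29 (log2 difference 2.04 ± 0.20, adjusted p = 0.000564). Slc2a4, the insulin-responsive glucose transporter, had 1851, 1426 and 1561 at P44, against 536, 417 and 382 at P29 (log2 difference 1.86 ± 0.18, adjusted p = 0.000492). Pgam1, the widespread form of phosphoglycerate mutase, fell instead, with 2279, 2421 and 2293 at P44, against 4315, 3928 and 3359 at P29 (-0.72 ± 0.14, adjusted p = 0.00634). In the respiratory chain 21 of 81 genes rose (25.9%), no more than the 28.7% of all genes. The number was 13 without P44 replicate 3 or P29 replicate 2 and 15 to 17 without 1 of the others. Cox6a2, Cox7a1 and Cox8b, the muscle forms of cytochrome oxidase subunits, differed by 2.33 ± 0.15, 2.56 ± 0.17 and 2.55 ± 0.20, while Cox8a, the widespread form, differed by -0.60 ± 0.13.

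Of 35 fatty acid oxidation genes 14 rose, or 8 without P44 replicate 3, 9 without P29 replicate 1 or 2 and 10 to 12 without 1 of the others. Fabp3, the fatty acid carrier of muscle, had 3694, 2198 and 2352 at P44, against 844, 370.3 and 647 at P29 (log2 difference 2.19 ± 0.34, adjusted p = 0.00291). Pdk4 and Pdk2, which switch off pyruvate dehydrogenase, differed by 2.33 ± 0.42 and 1.67 ± 0.15, and Pdk3 moved the other way by -1.82 ± 0.13. Skeletal muscle markers were higher in 14 of 14 cases, with summed signals of 347802 to 387892 at P44 and 119001 to 167265 at P29, and 11 of them belong to the sarcomere list too. The share of muscle in each sample of skin, and its part in the rise of sarcomere, glycolysis and fatty acid oxidation genes, was not tested.

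Epidermal barrier genes rose in some families and fell in others. Of 39 S100, Sprr and late cornified envelope genes 16 rose and 14 fell. Lce1m had 11949, 12143 and 12821 at P44, against 940.3, 1301 and 1296 at P29 (log2 difference 3.40 ± 0.16, adjusted p = 6.95e-05), and Lce1c had 10456, 11262 and 12785 at P44, against 1208, 1355 and 1522 at P29 (log2 difference 3.08 ± 0.15, adjusted p = 6.86e-05). Both code for late cornified envelope proteins, whose Lce1a1 to Lce1f neighbours on chromosome 3 formed a run of 6 higher genes. Lor, loricrin, the main envelope protein, had 34664, 38075 and 31968 at P44, against 7936, 9509 and 8059.7 at P29 (log2 difference 2.04 ± 0.14, adjusted p = 0.000186). Every P44 array was above every P29 array for these 3 genes.

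Ivl, involucrin, an early envelope protein, was lower, with 3049, 2820.4 and 3154 at P44, against 9154, 10323 and 10799 at P29 (-1.74 ± 0.13, adjusted p = 0.000226). Sprr2h, a small proline-rich envelope protein, had 136, 253 and 197 at P44, against 2247, 4709.9 and 3878 at P29 (log2 difference -4.19 ± 0.34, adjusted p = 0.000288). S100a3, a calcium-binding protein of hair cuticle cells, differed by -7.33 ± 0.42. Serpinb7, a protease inhibitor of the upper epidermis, had 5668, 5159 and 5484 at P44, against 527, 639 and 743 at P29 (log2 difference 3.11 ± 0.16, adjusted p = 8.42e-05). Serpina12 had 3393, 3273 and 3179.9 at P44, against 782, 858 and 776 at P29 (log2 difference 2.03 ± 0.12, adjusted p = 0.000112), and Klk5, a kallikrein that sheds surface cells, had 4179, 3630.4 and 3982 at P44, against 1362, 1499 and 1629 at P29 (log2 difference 1.39 ± 0.13, adjusted p = 0.000476). Prss53, a serine protease, had 138, 166 and 186 at P44, against 3722, 4244 and 4189 at P29 (log2 difference -4.64 ± 0.15, adjusted p = 2.78e-05). St14, matriptase, had 994, 955 and 880.3 at P44, against 3538, 3696 and 3222 at P29 (log2 difference -1.89 ± 0.13, adjusted p = 0.000175). Of 30 kallikreins and other serine proteases 8 rose and 7 fell (26.7% and 23.3%), close to the 28.7% and 20.5% of all genes.

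Of 34 barrier lipid genes 16 rose and 4 fell. Sptlc3, of the first step of sphingolipid synthesis, had 1415, 1542 and 1461 at P44, against 404, 482 and 506 at P29 (log2 difference 1.67 ± 0.14, adjusted p = 0.000301). Alox8, a lipoxygenase, had 37.2, 9.8 and 55 at P44, against 1229, 1287 and 1077 at P29 (log2 difference -4.85 or lower, adjusted p = 4.92e-05), and Pnpla1, which makes acylceramides, had 337, 387 and 402 at P44, against 1062, 1173 and 1228 at P29 (log2 difference -1.62 ± 0.13, adjusted p = 0.000309). The lipid synthesis list held 19 risers of 39, or 11 without P44 replicate 3, 12 without P29 replicate 2 or 3 and 14 to 18 without 1 of the others. Fads3 and Fads2, fatty acid desaturases, had 393, 386 and 499 at P44, against 3100.3, 3441 and 3808 at P29, and 82.8, 115 and 100.2 at P44, against 499, 599 and 504 at P29. These 2 differed by -3.02 ± 0.16 and -2.44 ± 0.17, and Acacb, which makes malonyl-CoA at mitochondria, rose by 2.08 ± 0.26. Cholesterol synthesis had 7 of 22 genes lower, among them Idi1 (-1.31 ± 0.23), while Dhcr7, of the last step, was higher (0.72 ± 0.15).

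Collagen, laminin and integrin genes rose more often than they fell. Of 33 collagen chains 15 rose and 3 fell, and of 31 laminin and integrin chains 20 rose and 2 fell. Col17a1, which anchors basal cells at hemidesmosomes, had 9767, 9954 and 9863 at P44, against 2264, 2940.1 and 2526 at P29 (log2 difference 1.94 ± 0.14, adjusted p = 0.000209). Col7a1, of the anchoring fibrils beneath, had 1668, 1676 and 1569.9 at P44, against 541, 566 and 386 at P29 (log2 difference 1.74 ± 0.18, adjusted p = 0.000577), and Lamb3, of the laminin they bind, had 2796, 1856 and 2161 at P44, against 554, 689.8 and 709 at P29 (log2 difference 1.79 ± 0.19, adjusted p = 0.000729). Col14a1, of the dermis, had 4422, 3345 and 4050.2 at P44, against 1569, 1489 and 1267 at P29 (log2 difference 1.45 ± 0.16, adjusted p = 0.000796). The groups did not overlap for these genes, and the P44 values of Col17a1 lay close together.

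Dermal genes spread more among mice. Mmp2, a gelatinase of fibroblasts, had 9171, 15342 and 12076 at P44, against 2232, 2196 and 1637 at P29 (log2 difference 2.58 ± 0.23, adjusted p = 0.000381). Replicate 1 was the lowest P44 array for 11 of 13 dermal fibroblast markers and replicate 2 the highest for 9. Of the 13 markers 10 rose, with summed signals of 179844 to 269058 at P44 and 107141 to 152444 at P29, whereas the main dermal collagen chains Col1a1, Col1a2 and Col3a1 did not pass. Adam33 had 987, 1114 and 1044 at P44, against 223, 243 and 239.5 at P29 (log2 difference 2.16 ± 0.12, adjusted p = 0.000104), and Adamts20, a protease linked to pigment patterning in mice, had 16.6, 43 and 12.8 at P44, against 1044, 994 and 1344 at P29 (log2 difference -4.91 or lower, adjusted p = 2.78e-05). Pecam1, of endothelium, had 1077, 790.1 and 1028 at P44, against 379, 378 and 389 at P29 (log2 difference 1.32 ± 0.15, adjusted p = 0.000942), beside 10 of 12 endothelial markers higher (6 without P44 replicate 3 or P29 replicate 2).

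Enzymes that act on small molecules rose more often than they fell. Of 30 cytochrome P450 genes 17 rose and 4 fell, and of 30 aldehyde dehydrogenases, flavin monooxygenases and carboxylesterases 13 rose and 3 fell. Cyp2e1, the ethanol-inducible P450, had 14973, 8879.6 and 10438 at P44, against 2476, 618 and 942 at P29 (log2 difference 3.30 ± 0.50, adjusted p = 0.00252), with P29 replicate 1 well above the other P29 arrays. Aox1, aldehyde oxidase, had 1158, 987 and 994 at P44, against 143, 129 and 108 at P29 (log2 difference 3.05 ± 0.15, adjusted p = 7.88e-05). Aldh1a1, which makes retinoic acid, had 4262, 3829 and 3269 at P44, against 779, 634 and 585 at P29 (log2 difference 2.51 ± 0.17, adjusted p = 0.00018), while Aldh1a3, with the same reaction, had 292, 240.5 and 298 at P44, against 976, 864 and 838 at P29 (log2 difference -1.69 ± 0.14, adjusted p = 0.000335). Inmt, an N-methyltransferase of tryptamine, had 4424, 2218 and 2466 at P44, against 268, 278 and 241 at P29 (log2 difference 3.46 ± 0.27, adjusted p = 0.000256). The 2 retinaldehyde dehydrogenases thus had opposite differences, each with groups apart.

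Signalling families held movers of both signs. Semaphorins, ephrins, slits and their receptors had 21 lower (13 without P29 replicate 2) and 15 higher of 58, with a median of 0.02 that became -0.01 with quantile normalization and -0.02 with median centring. Ephb1, an ephrin receptor, had 62.7, 45.3 and 85 at P44, against 484, 554 and 531 at P29 (log2 difference -3.07 ± 0.24, adjusted p = 0.00025), and Sema3c, a secreted semaphorin, had 5109, 4574 and 4823 at P44, against 1751, 1344 and 1869 at P29 (log2 difference 1.56 ± 0.16, adjusted p = 0.000629). Dusp14, a phosphatase of MAP kinases, had 729, 1139 and 915 at P44, against 11476, 11216 and 15142 at P29 (log2 difference -3.78 ± 0.21, adjusted p = 0.000104), and Dusp2, another, had 44.5, 149 and 134 at P44, against 1010.2, 1094 and 1439.5 at P29 (log2 difference -3.60 ± 0.46, adjusted p = 0.00131). Kit, the receptor for stem cell factor, had 393, 326 and 282 at P44, against 886, 770.3 and 545 at P29 (log2 difference -1.12 ± 0.22, adjusted p = 0.00728). These 3 falls do not stand for their lists. Of 50 receptor tyrosine kinases and their adaptors 19 rose and 5 fell (38% and 10%). Of 26 dual-specificity phosphatases and Sprouty genes 9 rose and 7 fell (34.6% and 26.9%), beside 28.7% and 20.5% of all genes. Of 86 ion channel genes 35 rose and 14 fell.

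Some groups differed from the background by showing little. Of 274 zinc finger genes named Zfp 43 rose and 31 fell (15.7% and 11.3%), the falls being 16 without P29 replicate 3 and 19 without P29 replicate 1, P44 replicate 2 or P44 replicate 3. Of 20 V-ATPase subunits 15 did not pass, and of 47 ribosomal proteins 37 did not pass. Chromatin enzymes had 27 of 121 higher (17 without P44 replicate 3 or P29 replicate 2) and 19 lower, with a median of -0.04 that turned to 0.06 when arrays were centred on ribosomal protein genes. Cbx7, of a Polycomb complex, had 840.4, 779 and 844 at P44, against 253, 231 and 275 at P29 (log2 difference 1.70 ± 0.13, adjusted p = 0.000233), and Uhrf1, which maintains DNA methylation, had 198, 349 and 238 at P44, against 1146, 1137 and 789 at P29 (log2 difference -1.99 ± 0.26, adjusted p = 0.00135). Zfp521 had 477, 644 and 671 at P44, against 143, 176 and 139 at P29 (log2 difference 1.96 ± 0.18, adjusted p = 0.000435), the largest rise of its list. A further 2758 genes that rose and 1876 that fell belonged to none of the lists.

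For 29 genes all P44 arrays lay under the floor of 34.6 with every P29 array above it, and for 32 genes the reverse held. Of these, 29 and 31 passed the test. Since they were chosen for groups on either side of the floor, passing was likely from the start and adds no support. Their differences are bounds. Lyg2, a lysozyme-like protein, had 23.4, 4 and 2.5 at P44, against 8985, 6341 and 7763 at P29 (-7.78 or lower, adjusted p = 1.11e-05). Tgm6, a transglutaminase, had 18.3, 5.2 and 8.9 at P44, against 1198, 1438 and 1529 at P29. Ccl5, a chemokine for T cells, had 359, 326 and 285 at P44, against 8.9, 10.3 and 15.8 at P29, and Kcnq5, a potassium channel, had 283, 334 and 277 at P44, against 30.9, 18.5 and 10.6 at P29. Cd7, of T cells, had 288, 259 and 292 at P44, against 25.8, 10.2 and 23.9 at P29. On the low side these values sit in the range where array signals have no order.

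Where a gene was read by several probe sets, they usually agreed in direction. Among 2265 genes with at least 2 called probe sets, 123 (5.43%) had probe sets called in opposite directions, 12 of them by over 2-fold each way. Tpm1, tropomyosin, had 499, 397 and 565 at P44, against 107, 125 and 102 at P29 on a first probe set (2.12 ± 0.17, adjusted p = 0.000303), and 1906, 2155 and 2209 at P44, against 7982, 9141 and 8005 at P29 on another (-2.00 ± 0.13, adjusted p = 0.000163). Lrrfip1 had 943, 707 and 847 at P44, against 320.3, 398 and 272 at P29 on a first (1.34 ± 0.19), and 140, 148 and 103 at P44, against 522, 553 and 529 at P29 on another (-2.05 ± 0.17). For Gas7 the pair was 2.03 ± 0.20 and -1.46 or lower, and for Gsn, gelsolin, 1.48 ± 0.12 and -1.21 ± 0.25. The count of such genes was 49 without P29 replicate 1, 53 without P29 replicate 2, 57 without P44 replicate 3, 68 without P29 replicate 3 and up to 113 without 1 of the others.

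**Figure D5:**
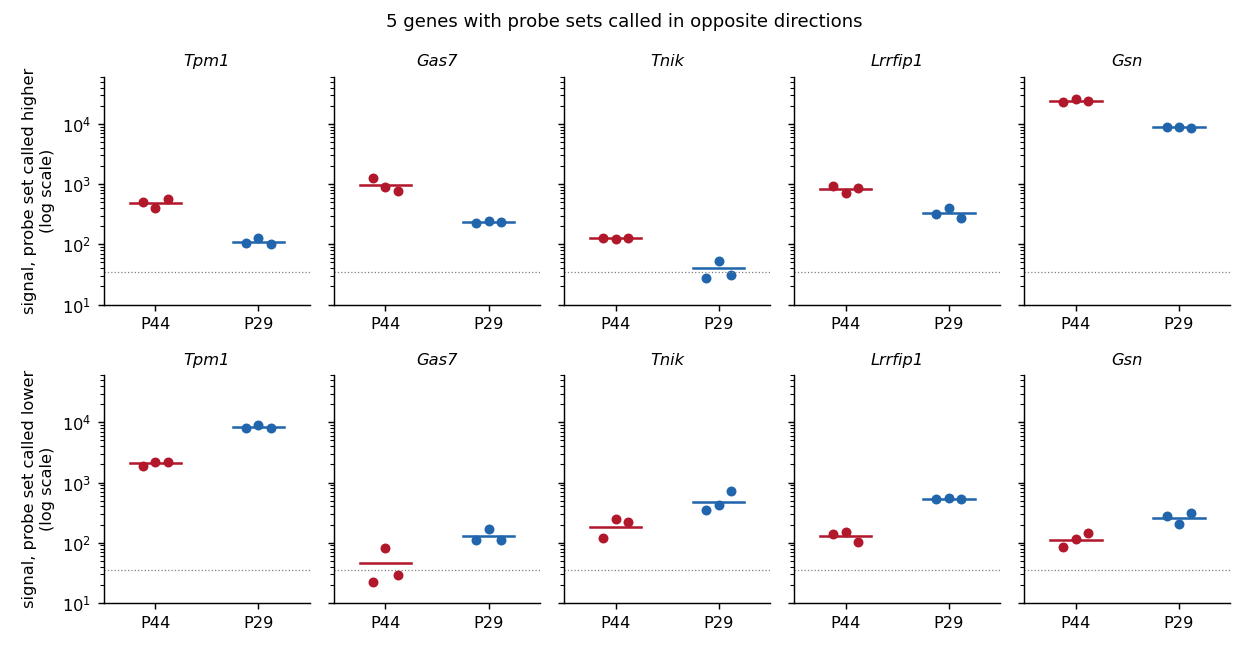
Signals (log axis) of 5 genes on the 3 arrays of P44 (red, left) and P29 (blue, right), with the probe set called higher in the top panels and the probe set called lower in the bottom panels. Lines are means on the log scale, and the dotted line is the floor. For Tpm1 the log2 difference, P44 minus P29, is 2.12 in the top panel and -2.00 in the bottom one.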

How the data were processed

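RNA of whole dorsal skin, 1 mouse per array, had been measured on the Mouse Genome 430 2.0 array of Affymetrix. The deposited values were linear intensity values per probe set, computed by the authors with MAS 5.0 and scaled to a common mean, which made the trimmed mean (2% off each side) 497.2 to 497.9 on these 6 arrays. Differences are therefore relative to the rest of an array. Median signals were 126.2 to 142.5 at P44 and 130.3 to 135.5 at P29.

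Signals under 34.6, the 25th percentile of the 33 arrays, took that value as a floor before log2 was taken. Of 45037 probe sets 26988 were kept, those that passed the median signal of their array in 3 or more arrays, of which 1.36% to 2.45% lay under the floor on an array. Symbols came from the platform annotation, where 34945 probe sets (77.6%) had 1 symbol, 932 several and 9160 none. Entrez identifiers matched 34741 of them to RefSeq, and 0 changed. Each of 12867 genes was read by its kept probe set with the highest mean. The P44 and P29 arrays were fitted alone with lmFit and eBayes (limma 3.58.1, R 4.3.3), and p-values were adjusted by Benjamini-Hochberg across every kept probe set. ± is the SE. Where an array lay under the floor, the difference is a bound. Values were read by fread (data.table, version 1.17.8) and figures drawn with matplotlib 3.10.9. On simulated data with the spread of these arrays, 200 of 26988 probe sets were changed. There 77% of 4-fold and 29% of 2-fold changes were recovered, with 7 false calls and 0 in the wrong direction. In the data 44.6% of probe sets were called, so the adjustment set a different p cutoff. The simulated shares therefore do not tell how many real changes were found here.

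The comparison, the 69 gene lists (15 of cell type markers, 3267 entries, 3094 distinct genes) and the tests were chosen with earlier results of these data known, and some name patterns were narrowed after values were seen because they took in unrelated genes, among them Y-linked ones. Lists are described by counts and medians, with no test of a list. Named genes were the 15 largest rises and falls with groups apart and no array under the floor, up to 4 members of each list with the smallest p in each direction, the 5 genes with the highest mean in the other group among those under the floor in 1 group only, the 5 genes with the widest opposite probe sets, the 8 transcription factors with the largest difference in each direction, the members of the 3 longest runs in each direction and those of the marker lists. The 8 transcription factors in each direction also had to have groups apart and no array under the floor. Other genes named with runs or promoters were chosen after their values were seen. Promoters were those of RefSeq (GRCm38.p6). Sex agreed between labels and sex-linked genes. Alternatives were other floors, filters, normalizations and centrings, a joint fit of all arrays, P34 added to late anagen, sex as a covariate, a replicate block, the test that the methods of the study name, a test against 2-fold, other probe sets per gene, and each array left out.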

Additional observations from a re-analysis of the deposited data

How the results depend on the processing

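The number of genes called, 6328, moved by less than 1.5 times under all alternatives run except a test against a 2-fold difference, which called 1110 genes (650 higher, 460 lower) and 1768 probe sets. Without 1 array it was 5053 to 5923 genes and 9516 to 11207 probe sets. The replicate numbers were taken as names of the arrays only. Deviations of same-numbered arrays correlated at -0.053, -0.065 and -0.002, and those of different-numbered arrays at -0.042 to 0.085. These values show no pairing, but so few arrays cannot tell whether same-numbered mice had anything in common. With a replicate block 5548 genes and 10678 probe sets passed. Genes with probe sets called in opposite directions numbered 123, and 72 with a stricter filter, 202 in a joint fit of all 33 arrays, 76 with the replicate block, 45 with the methods' test at its threshold, 1 against a 2-fold difference and 49 to 113 without 1 array. With a floor at the 10th percentile 8 genes (3 higher, 5 lower) in place of 61 lay under the floor in 1 group only. The probe set with the largest variance turned the sign of Srpr (-0.41), Zfp36l2 (-0.53), Smarca5 (0.70), Gas7 (-1.46), Slc6a6 (-0.19) and S100b (-0.054), where the cause was not tested. Centring on ribosomal protein genes raised the median of all genes to 0.19, and 66.3% of called genes were then higher, beside 58.3%. Of 522 named genes that were called, 476 kept the call without each array in turn. Arrays limit what low signals over background can show, and values under the floor have no order.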
